A study of Homo sapiens with 18 samples.

Results

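The genes described here encode MHC class I molecules and the machinery that loads them with peptide. They were chosen by symbol, as the rows named HLA-B, HLA-C, HLA-E, HLA-F, B2M, TAP1, TAP2, TAPBP or NLRC5, which gave 9 of the 60595 genes listed in each table of expression values. RNA was sequenced from A375, a human melanoma line with an activating BRAF mutation, in 18 libraries that form 9 groups of 2. From the study's title, R is taken to stand for cells resistant to BRAF and MEK inhibitors, and P for the parental cells. R_DT and P_DT cells received 250 nM dabrafenib, a BRAF inhibitor, with 10 nM trametinib, a MEK inhibitor, and R_DMSO and P_DMSO cells received the solvent DMSO. R_shLSD1 and P_shLSD1 cells carried a lentiviral hairpin against LSD1, the histone demethylase encoded by KDM1A, R_shFosL1 cells carried a FOSL1 hairpin, FOSL1 being a subunit of AP-1, and R_shCtrl and P_shCtrl cells carried a control hairpin. The labels name no drug for the hairpin groups, do not say whether the R line is a single clone, and do not say that replicates were separate cultures, so that p-values may measure technical spread only. Values are FPKM, fragments scaled to transcript length and library size, and all 9 genes passed the filter of 1 FPKM in at least 2 libraries in every comparison.

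Classical class I molecules present peptides from inside the cell to CD8+ T cells, and consist of a heavy chain, such as HLA-B or HLA-C, and the invariant light chain B2M. The transporter made of TAP1 and TAP2 carries peptides from the cytosol into the endoplasmic reticulum, where tapasin (TAPBP) holds the empty molecule next to it and helps it to select a peptide. HLA-E presents leader peptides of other class I chains to an inhibitory receptor of natural killer cells, HLA-F is another non-classical heavy chain, and NLRC5 is the transactivator that drives transcription of class I genes. Interferon raises the whole set, and melanomas are known to lose or lower class I as a way to escape T cells.

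The heavy chain genes, both transporter genes and TAPBP lie in the MHC on chromosome 6, while B2M lies on chromosome 15 from 44711487 to 44718877 and NLRC5 on chromosome 16 from 56989485 to 57083531 (GENCODE 29, GRCh38). The authors' tables give HLA-B and HLA-C the same locus, chromosome 6 from 31268749 to 31357637, and the annotated HLA-B gene (31269491 to 31357188) overlaps HLA-C (31268749 to 31272130) on the same strand. Promoters of the 4 genes whose drug responses are contrasted below are printed so that matches to a few fixed motifs can be seen in place. They are RefSeq sequences on GRCh38.p14, 5′ to 3′ on the strand of the gene, from 250 bases before to 50 bases after the start. They lie at chr6:31357130-31357429 (HLA-B, minus strand), chr15:44711267-44711566 (B2M, plus strand), chr6:32853655-32853954 (TAP1, minus strand, the first of 2 entries) and chr6:32838690-32838989 (TAP2, minus strand). Capitals mark matches, on either strand, to the interferon-response element (a pair of GAAA with any 2 bases between them), to the CCAAT box, to the core of the cAMP-response element (TGACG) and to a kappa B decamer, which is the first run of capitals in the HLA-B sequence, and runs that join are overlapping matches.
HLA-B: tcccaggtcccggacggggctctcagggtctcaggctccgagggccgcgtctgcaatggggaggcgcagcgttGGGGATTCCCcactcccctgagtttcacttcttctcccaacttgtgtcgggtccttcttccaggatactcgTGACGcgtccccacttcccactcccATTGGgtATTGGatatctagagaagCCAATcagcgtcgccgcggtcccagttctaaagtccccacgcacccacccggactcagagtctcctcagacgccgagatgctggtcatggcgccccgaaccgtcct
B2M: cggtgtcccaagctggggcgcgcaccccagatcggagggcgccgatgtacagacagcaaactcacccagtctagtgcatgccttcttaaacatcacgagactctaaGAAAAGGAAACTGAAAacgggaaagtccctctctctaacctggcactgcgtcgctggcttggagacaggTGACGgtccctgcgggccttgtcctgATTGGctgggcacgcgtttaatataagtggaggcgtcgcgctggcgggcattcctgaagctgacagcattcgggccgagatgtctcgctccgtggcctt
TAP1: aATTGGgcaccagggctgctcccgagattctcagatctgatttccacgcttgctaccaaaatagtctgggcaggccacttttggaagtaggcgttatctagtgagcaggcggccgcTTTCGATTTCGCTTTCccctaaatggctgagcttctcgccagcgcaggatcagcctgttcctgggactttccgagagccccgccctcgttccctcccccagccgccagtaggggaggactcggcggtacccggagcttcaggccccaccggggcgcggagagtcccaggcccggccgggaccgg
TAP2: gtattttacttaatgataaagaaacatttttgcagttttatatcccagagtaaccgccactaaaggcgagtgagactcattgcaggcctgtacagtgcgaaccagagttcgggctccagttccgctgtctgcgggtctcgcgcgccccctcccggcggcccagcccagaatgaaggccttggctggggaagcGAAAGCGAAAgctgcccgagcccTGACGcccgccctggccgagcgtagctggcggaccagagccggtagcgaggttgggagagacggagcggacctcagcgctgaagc

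Entries were found for 7 of the 9 genes, and HLA-E and NLRC5 had none. The interferon-response element matched in 5 of these 7 promoters (HLA-F, B2M, TAP1, TAP2 and TAPBP), against 3.57% of all 35116 promoters of the table. CCAAT matched in 5 of 7, against 34.6% of all promoters, and TGACG in 4 of 7, against 24.6%. The kappa B decamer was found only in the HLA-B promoter, beginning at base -177 from the start, and matched 0.0769% of all promoters. An AP-1 site (TGANTCA, 7.71% of all promoters) and a gamma-activated site (TTCNNNGAA, 7.66%) matched in none of the 7. These are matches of fixed letters in a window and not measured binding. Elements that differ from the searched letters stay unmarked. A promoter without a match is thus not shown to lack the element. This holds for HLA-B and HLA-C with the interferon-response element, and for HLA-C, B2M and TAP1 with the kappa B site.

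In all 18 libraries, FPKM summed to between 556410 and 814364, 13921 to 15314 genes reached 1 FPKM and mitochondrially encoded RNA took 7.27% to 16.8% of the sum. The targeted genes were low with their hairpins. KDM1A was at 10.1 and 11.1 FPKM in R_shLSD1, against 73.3 and 76.5 in R_shCtrl, and at 9.54 and 6.73 in P_shLSD1, against 78.1 and 72.4 in P_shCtrl. FOSL1 was at 36.2 and 38.3 FPKM in R_shFosL1, against 109 and 104 in R_shCtrl. The P_DMSO libraries stood apart from each other, with an SD of the log2 difference between replicates of 0.598 over 9519 protein-coding genes averaging 5 FPKM or more, against 0.260 to 0.382 in the other groups, and results that rest on them are given below also without each. Of 8 melanocytic markers, SOX10 was listed at 0 in all R_DMSO and R hairpin libraries and at or below 0.163 FPKM in R_DT, against 89.1 FPKM or more in every P library, and the pigment enzyme TYR was listed at 0 in all 18. Among 8 leukocyte markers, PTPRC was at or below 0.204 FPKM and CD3E at or below 0.11 FPKM throughout, while CD68 was at 22.2 to 126 FPKM. In bulk RNA of this kind, fewer cells of a type and less RNA per cell cannot be told apart.

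**Figure D1:**
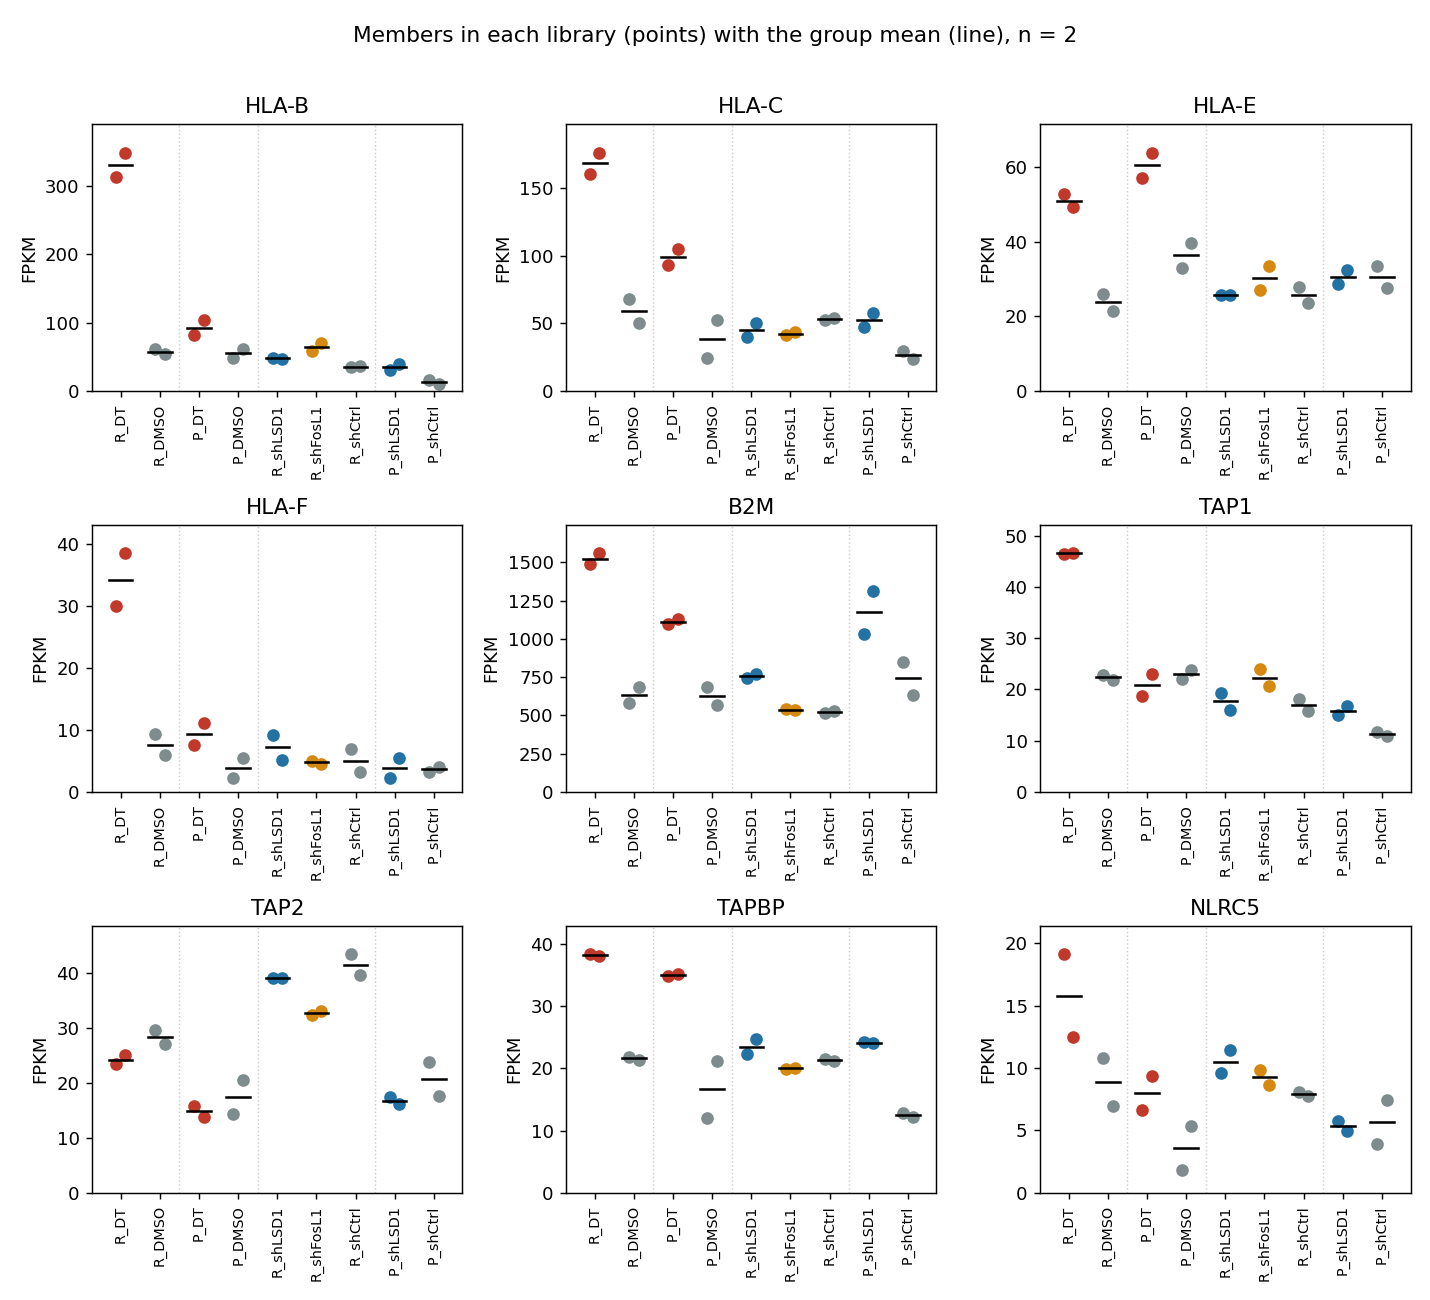
FPKM of each of the 9 genes in every library (points) with the mean of each group (line, n = 2), linear axes from 0. HLA-B, HLA-F and TAP1 have their highest values in R_DT (314 and 349 FPKM for HLA-B), while TAP2 does not. The drug, R hairpin, R_shFosL1 and P hairpin groups come from 4 tables that were normalized separately.

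Dabrafenib plus trametinib raised most of the set in the resistant line. In R_DT against R_DMSO, 6 of the 9 genes rose and none fell, where 3.65% of 17191 genes tested rose, 2.83% fell and 6.49% did either, and the median change of the 9 was 1.07 on the log2 scale against -0.03 over all genes. The 6 were HLA-B, HLA-C, HLA-E, HLA-F, B2M and TAP1. Changes are log2 changes of FPKM + 1 ± standard error, with limma's adjusted p over all genes.

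The classical chain HLA-B rose most. It had 314 and 349 FPKM in R_DT, against 61.5 and 53.8 FPKM in R_DMSO, a ratio of means of 5.75 (2.50 ± 0.18, adjusted p = 0.0015). Both treated libraries lay far above all 16 other libraries of the study. HLA-C had 161 and 176 FPKM in R_DT, against 67.7 and 50.0 FPKM in R_DMSO (1.52 ± 0.33, adjusted p = 0.047), and again the groups did not overlap. This call was lost with a pseudocount of 0.1 (adjusted p = 0.056) and when every gene above 0 was tested (adjusted p = 0.090). The non-classical chains moved the same way. HLA-E, whose product is a ligand of natural killer cell receptors, had 52.8 and 49.2 FPKM in R_DT, against 26.0 and 21.6 FPKM in R_DMSO (1.07 ± 0.16, adjusted p = 0.015). HLA-F was the lowest of the heavy chains, with 30.1 and 38.6 FPKM in R_DT, against 9.32 and 5.96 FPKM in R_DMSO (2.05 ± 0.38, adjusted p = 0.029, and 0.059 when every gene above 0 was tested). For both, each treated library was above each control library.

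The light chain B2M, the most abundant of the 9, had 1487 and 1559 FPKM in R_DT, against 578 and 685 FPKM in R_DMSO (1.27 ± 0.15, adjusted p = 0.0084). TAP1, the transporter subunit encoded next to PSMB9, had 46.6 FPKM in both R_DT libraries, against 22.9 and 21.9 FPKM in R_DMSO (1.02 ± 0.14, adjusted p = 0.012). Its partner TAP2 did not follow. TAP2 had 23.3 and 25.1 FPKM in R_DT, against 29.6 and 27.0 FPKM in R_DMSO, and was the only one of the 9 with both treated libraries below both controls (-0.22 ± 0.19, adjusted p = 0.55). Tapasin (TAPBP) had 38.4 and 38.2 FPKM in R_DT, against 21.9 and 21.4 FPKM in R_DMSO, without passing the test (0.80 ± 0.24, adjusted p = 0.10). The transactivator NLRC5 had 19.1 and 12.5 FPKM in R_DT, against 10.8 and 6.95 FPKM in R_DMSO, with libraries apart but widely spread (0.77 ± 0.43, adjusted p = 0.33).

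Of the 9 genes, 8 had both R_DT libraries above both R_DMSO libraries, where 28.3% of all genes did, and 1 of the 9 had both below, where 32.6% did. When any 1 of the 4 R libraries was left out, HLA-B alone stayed past the threshold (adjusted p of 0.023 to 0.031), and the calls over all genes fell from 1115 to between 54 and 101. The summed melanocytic markers (3 of 8 at 1 FPKM or more in R_DT and 2 of 8 in R_DMSO) were 35.9 to 58.3 FPKM in R_DT, against 24.9 to 27.0 FPKM in R_DMSO. Summed fibroblast markers (2 of 6 in both groups) were 33.3 to 37.6 FPKM in R_DT, against 12.2 to 17.3 FPKM in R_DMSO. Summed endothelial markers (1 of 4 at 1 FPKM or more in R_DT and 0 of 4 in R_DMSO) were 7.13 to 7.82 FPKM in R_DT, against 0.298 to 0.620 FPKM in R_DMSO. Their part in the result was not tested. The mitochondrial share was 10.7% and 12.5% in R_DT, against 10.2% and 12.4% in R_DMSO.

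In the parental line 5 of the 9 genes rose. In P_DT against P_DMSO, HLA-B, HLA-C, HLA-E, B2M and TAPBP rose and none of the 9 fell, where 12.8% of all genes rose, 9.67% fell and 22.5% did either, and the median change was 0.84 against 0.11 over all genes. HLA-B had 81.3 and 104 FPKM in P_DT, compared with 48.6 and 61.7 FPKM in P_DMSO (0.74 ± 0.18, adjusted p = 0.031). HLA-C had 93.4 and 105 FPKM in P_DT, compared with 24.6 and 52.5 FPKM in P_DMSO (1.43 ± 0.33, adjusted p = 0.025). In both chains the groups were apart, and for HLA-C the P_DMSO libraries differed from each other more than the P_DT ones did. HLA-E had 57.1 and 64.0 FPKM in P_DT, compared with 33.1 and 39.8 FPKM in P_DMSO (0.72 ± 0.16, adjusted p = 0.021). B2M had 1095 and 1127 FPKM in P_DT, compared with 682 and 567 FPKM in P_DMSO (0.84 ± 0.15, adjusted p = 0.011). Both were higher in each treated library.

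Tapasin rose in this line, with 35.0 and 35.3 FPKM in P_DT, compared with 11.99 and 21.3 FPKM in P_DMSO (1.09 ± 0.24, adjusted p = 0.022). HLA-F had 7.59 and 11.1 FPKM in P_DT, compared with 2.21 and 5.49 FPKM in P_DMSO (1.16 ± 0.38, adjusted p = 0.072), and NLRC5 had 6.60 and 9.35 FPKM, against 1.85 and 5.33 FPKM (1.06 ± 0.43, adjusted p = 0.12). Their libraries were apart, but neither passed the test. The transporter genes showed no such shift. TAP1 had 18.8 and 23.1 FPKM in P_DT, compared with 22.1 and 23.8 FPKM in P_DMSO (-0.13 ± 0.14, adjusted p = 0.54), and TAP2 had 15.8 and 13.8 FPKM, against 14.3 and 20.6 FPKM (-0.20 ± 0.19, adjusted p = 0.50). Both overlapped, and the 95% interval of the TAP1 change ran from -0.47 to 0.21.

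Of the 9, 7 had both P_DT libraries above both P_DMSO libraries and none had both below, where 34.9% and 25.3% of all genes did. These P results rest on uneven controls. With P_DT and P_DMSO fitted alone limma called 0 of the 9, with 6 at an unadjusted p below 0.05. Without P_DMSO replicate 1, 4 of the 9 genes were called, HLA-B no longer among them, and the HLA-C change was 0.90. Without P_DMSO replicate 2, 7 were called, with HLA-F and NLRC5 added, and the HLA-C change was 1.96. Without P_DT replicate 1 or P_DT replicate 2, limma called 0 of the 9, with 6 and 5 of them at an unadjusted p below 0.05. With libraries rescaled to the protein-coding total, HLA-F (1.41, adjusted p = 0.023) and NLRC5 (1.32, adjusted p = 0.047) passed as well. The summed melanocytic markers (4 of 8 at 1 FPKM or more in both groups) were 430 to 452 FPKM in P_DT, compared with 157 to 201 FPKM in P_DMSO, and the mitochondrial share was 9.62% and 10.5%, against 7.27% and 7.86%; their part in the result was not tested.

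**Figure D2:**
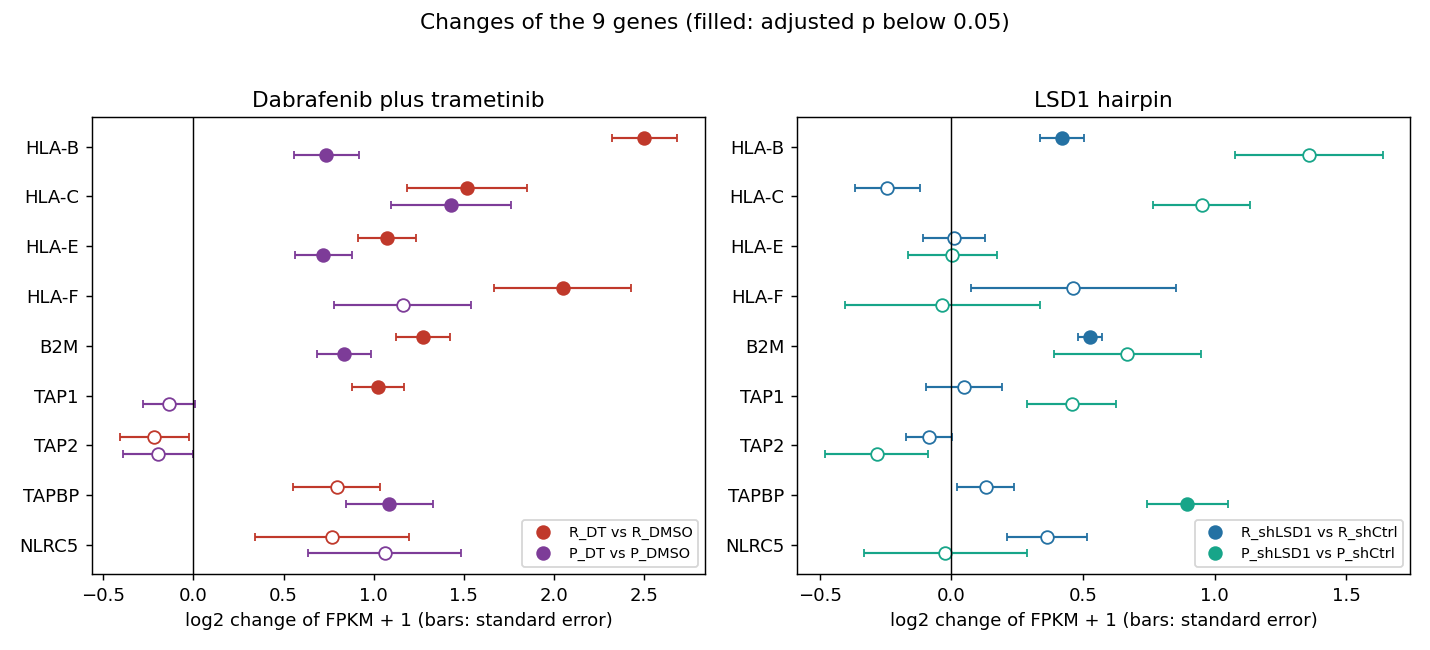
Log2 change of FPKM + 1 of the 9 genes, with standard errors, for the drugs (left, R above P for each gene) and the LSD1 hairpin (right, R above P), filled where the adjusted p is below 0.05. HLA-B at 2.50 and TAP1 at 1.02 in R_DT stand to the right of their P_DT values of 0.74 and -0.13.

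The drug responses of the lines were compared in an interaction term, R minus P. It was called for 2 of the 9 genes, HLA-B at 1.77 ± 0.26 (adjusted p = 0.0090) and TAP1 at 1.16 ± 0.20 (adjusted p = 0.015), both larger in R, where 6.64% of all genes were called above 0, 7.24% below 0 and 13.9% in either direction. HLA-B kept this call without each of the 8 drug libraries in turn, and TAP1 kept it without either P_DMSO library and without P_DT replicate 2, but not without P_DT replicate 1 or any 1 of the R libraries. For the other 7 no difference between lines was shown, with 95% intervals of -1.04 to 1.21 for HLA-C, -0.18 to 0.89 for HLA-E, -0.40 to 2.18 for HLA-F, -0.07 to 0.95 for B2M, -0.67 to 0.63 for TAP2, -1.10 to 0.52 for TAPBP and -1.73 to 1.14 for NLRC5. A response called in a single line, such as HLA-F in R or TAPBP in P, is therefore not shown to differ with all libraries in the fit. Without P_DMSO replicate 2 the TAPBP term was called (-0.68, adjusted p = 0.022).

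The lines were also compared with DMSO alone, where the median change of the 9 was 0.41 against 0.10 over all genes. In R_DMSO against P_DMSO, HLA-E fell (-0.59 ± 0.16, adjusted p = 0.033) and TAP2 rose (0.69 ± 0.19, adjusted p = 0.039), so that 2 of the 9 were called, where 27.6% of all genes were called, 16.2% higher and 11.5% lower. Of the 9, 4 lay apart upward and 1 downward, where 34.6% and 26.2% of all genes did. HLA-B, at 0.07 ± 0.18, B2M, at 0.02 ± 0.15, and TAP1, at -0.03 ± 0.14, had values near 0 and overlapping libraries, and the sign of the HLA-B and B2M values turned under the other scalings. NLRC5 was higher in both R_DMSO libraries without passing (1.19 ± 0.43, adjusted p = 0.083). Without P_DMSO replicate 1, HLA-E was the only call, and without P_DMSO replicate 2 there were 5, all higher in R_DMSO (HLA-C, HLA-F, TAP2, TAPBP and NLRC5). Without R_DMSO replicate 1 or R_DMSO replicate 2 limma called 0, with 1 and 3 at an unadjusted p below 0.05.

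Under the drugs the lines were compared again. In R_DT against P_DT, HLA-B (1.83 ± 0.18, adjusted p = 0.00056), HLA-F (1.78 ± 0.38, adjusted p = 0.011), TAP1 (1.13 ± 0.14, adjusted p = 0.0014) and TAP2 (0.67 ± 0.19, adjusted p = 0.033) rose, or 4 of the 9, where 18.6% of all genes rose, 19% fell and 37.6% did either. Of the 9 genes, 8 had both R_DT libraries above both P_DT libraries, where 35.9% of all genes did, and 39.5% had both below. HLA-E was the exception, lower in both R_DT libraries (-0.24 ± 0.16, adjusted p = 0.28), and passed the test when libraries were rescaled to the protein-coding total (-0.61, adjusted p = 0.012). B2M, at 0.45 ± 0.15, missed the threshold (adjusted p = 0.053). HLA-B and TAP1 kept their calls without each P_DT and R_DT library, HLA-F lost its call without P_DT replicate 1 and without R_DT replicate 2, and TAP2 lost its call without each of the 4. TAP2 also lost it under that rescaling (0.33, adjusted p = 0.17), where the TAPBP value turned to -0.24, and the B2M value turned to -0.31 under quantile normalization.

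The LSD1 hairpin was read in each line against its own control. In R_shLSD1 against R_shCtrl, HLA-B and B2M rose, 2 of the 9, where 9.42% of 14293 genes tested rose, 12.4% fell and 21.8% did either. The part of the 9 called was thus near the share of all genes called in either direction. HLA-B had 48.5 and 47.2 FPKM in R_shLSD1, against 34.5 and 36.5 FPKM in R_shCtrl (0.42 ± 0.08, adjusted p = 0.024). B2M had 742 and 767 FPKM in R_shLSD1, against 518 and 529 FPKM in R_shCtrl (0.53 ± 0.05, adjusted p = 0.0034). Replicates were close and the groups did not overlap for either gene. B2M kept its call without each of the 4 libraries, and HLA-B lost its call without any 1 of them (adjusted p of 0.065 to 0.097).

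HLA-C went the other way without passing the test, with 40.0 and 50.3 FPKM in R_shLSD1, against 52.6 and 54.1 FPKM in R_shCtrl (-0.24 ± 0.12, adjusted p = 0.22). HLA-E had 25.7 and 25.8 FPKM in R_shLSD1, against 27.9 and 23.5 FPKM in R_shCtrl, with a 95% interval of the change of -0.29 to 0.31. HLA-F had 9.15 and 5.19 FPKM, against 6.91 and 3.18 FPKM. Neither non-classical chain separated the groups. TAP1 had 19.3 and 16.1 FPKM in R_shLSD1, against 18.2 and 15.9 FPKM in R_shCtrl, and TAP2 had 39.0 FPKM in both, against 43.4 and 39.6 FPKM. TAPBP had 22.3 and 24.7 FPKM, against 21.6 and 21.2 FPKM, and NLRC5 had 9.59 and 11.4 FPKM, against 8.05 and 7.79 FPKM (0.36 ± 0.15, adjusted p = 0.15). TAPBP and NLRC5 were higher, and HLA-C and TAP2 lower, in both R_shLSD1 libraries, and none of these changes passed. With HLA-B and B2M, 4 of the 9 lay apart upward and 2 downward, where 28.8% and 35.6% of all genes did. The summed melanocytic markers (2 of 8 at 1 FPKM or more in both groups) were 37.9 to 41.1 FPKM in R_shLSD1, against 24.1 to 28.1 FPKM in R_shCtrl. The mitochondrial share was 15.5% and 16.8% in R_shLSD1, against 13.0% and 13.9% in R_shCtrl; the part of either in the result was not tested.

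In P_shLSD1 against P_shCtrl, tapasin alone rose, 1 of the 9, where 2.2% of 14729 genes tested rose, 1.22% fell and 3.42% did either, and the median change of the 9 was 0.46 against -0.04 over all genes. TAPBP had 24.2 and 24.1 FPKM in P_shLSD1, against 12.8 and 12.2 FPKM in P_shCtrl (0.90 ± 0.15, adjusted p = 0.046). HLA-B had 30.4 and 39.1 FPKM in P_shLSD1, against 16.8 and 9.80 FPKM in P_shCtrl (1.36 ± 0.28, adjusted p = 0.065). HLA-C had 47.2 and 57.4 FPKM in P_shLSD1, against 29.4 and 23.7 FPKM in P_shCtrl (0.95 ± 0.18, adjusted p = 0.058). The groups were apart for all 3 genes, but only TAPBP passed.

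B2M had 1034 and 1316 FPKM in P_shLSD1, against 847 and 635 FPKM in P_shCtrl (0.67 ± 0.28, adjusted p = 0.21). TAP1 had 15.0 and 16.7 FPKM in P_shLSD1, against 11.6 and 10.9 FPKM in P_shCtrl (0.46 ± 0.17, adjusted p = 0.18). Both were higher in each hairpin library. TAP2 had 17.3 and 16.0 FPKM in P_shLSD1, against 23.8 and 17.7 FPKM in P_shCtrl, lower in both. HLA-E had 28.7 and 32.4 FPKM, against 33.6 and 27.5 FPKM, HLA-F had 2.23 and 5.40 FPKM, against 3.28 and 4.07 FPKM, and NLRC5 had 5.75 and 4.91 FPKM, against 3.90 and 7.41 FPKM. These 3 overlapped between the groups. In all, 5 of the 9 lay apart upward and 1 downward, where 25.4% and 29% of all genes did.

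The P calls turned on scaling and on single libraries. The mitochondrial share was 13.3% and 11.4% in P_shLSD1, against 8.24% and 7.65% in P_shCtrl, and the summed melanocytic markers (4 of 8 in both groups) were 205 to 218 FPKM, against 106 to 114 FPKM. When each library was rescaled to its protein-coding total without mitochondrial genes, 3 of the 9 were called, HLA-B (1.43, adjusted p = 0.028), HLA-C (1.01, adjusted p = 0.028) and B2M (0.72, adjusted p = 0.027), and TAPBP no longer was (0.96, adjusted p = 0.073). TAPBP also lost its call without each of the 4 P hairpin libraries, and HLA-B was called without 3 of the 4, all but P_shLSD1 replicate 2. Without P_shCtrl replicate 1 both HLA-B and HLA-C were called, and without P_shLSD1 replicate 2 limma called 0 of the 9, with 3 at an unadjusted p below 0.05.

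The hairpin effect was then compared between lines, R minus P, in a fit of both hairpin tables, which were normalized separately. None of the 9 was called by limma, with 3 at an unadjusted p below 0.05, where 1.88% of 16075 genes were called, 0.641% above 0 and 1.24% below 0. The largest terms were HLA-C at -1.20 ± 0.23 (adjusted p = 0.054), HLA-B at -0.94 ± 0.33 (adjusted p = 0.21) and TAPBP at -0.77 ± 0.16 (adjusted p = 0.070). HLA-C passed under quantile normalization (-1.21, adjusted p = 0.032) and with rescaling to the protein-coding total (-1.19, adjusted p = 0.036).

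The FOSL1 hairpin was described against R_shCtrl, which sits in another table, and has no test. None of the 9 genes reached a log2 difference of 1 with libraries apart, where 5.86% of 14228 genes did, 2.57% upward and 3.3% downward. HLA-B came nearest, with 58.0 and 69.9 FPKM in R_shFosL1, against 34.5 and 36.5 FPKM in R_shCtrl, a log2 difference of 0.83. TAP1 had 24.0 and 20.7 FPKM in R_shFosL1, against 18.2 and 15.9 FPKM in R_shCtrl, a difference of 0.37. HLA-C had 41.2 and 43.4 FPKM, against 52.6 and 54.1 FPKM, and TAP2 had 32.4 and 33.0 FPKM, against 43.4 and 39.6 FPKM, each a difference of -0.33. HLA-B and TAP1 were thus higher, and HLA-C and TAP2 lower, in each R_shFosL1 library.

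B2M had 541 and 533 FPKM in R_shFosL1, against 518 and 529 FPKM in R_shCtrl, and TAPBP had 20.0 and 20.1 FPKM, against 21.6 and 21.2 FPKM. NLRC5 had 9.88 and 8.64 FPKM, against 8.05 and 7.79 FPKM. HLA-E (27.0 and 33.6 FPKM, against 27.9 and 23.5 FPKM) and HLA-F (5.05 and 4.46 FPKM, against 6.91 and 3.18 FPKM) overlapped. In all, 4 of the 9 lay apart upward and 3 downward, where 33.8% and 28.5% of all genes did. The summed melanocytic markers (2 of 8 in both groups) were 17.9 to 19.0 FPKM in R_shFosL1, against 24.1 to 28.1 FPKM in R_shCtrl. The mitochondrial share was 8.17% and 8.24%, against 13.0% and 13.9%; the part of either in the differences was not tested.

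The share of HLA-B among the heavy chains differed between groups. HLA-B made up 56.3% and 56.9% of the summed FPKM of the 4 heavy chains in R_DT, against 37.4% and 41.0% in R_DMSO, while it made up 34.0% and 36.7% in P_DT, against 44.8% and 38.7% in P_DMSO. With the LSD1 hairpin it made up 39.3% and 36.7% in R_shLSD1, against 28.3% and 31.1% in R_shCtrl, and 28.0% and 29.1% in P_shLSD1, against 20.2% and 15.1% in P_shCtrl. In R_shFosL1 the share was 44.2% and 46.2%, against the same R_shCtrl libraries. Each hairpin group was thus above its control in this share, R_DT was above R_DMSO and P_DT was below P_DMSO, with no overlap. The summed heavy-chain FPKM was 557 and 613 in R_DT, against 165 and 131 in R_DMSO, and 239 and 284 in P_DT, against 109 and 159 in P_DMSO.

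B2M stayed above the summed heavy chains everywhere. Its FPKM was 2.67 and 2.54 times that sum in R_DT, against 3.51 and 5.21 times in R_DMSO, and 9.53 and 9.80 times in P_shLSD1, against 10.2 and 9.74 times in P_shCtrl. It was 6.02 and 5.97 times that sum in R_shLSD1, against 4.25 and 4.51 times in R_shCtrl, higher in both. TAP1 had 1.996 and 1.86 times the FPKM of TAP2 in R_DT, against 0.774 and 0.812 times in R_DMSO. In P_DT the ratio was 1.19 and 1.66, against 1.55 and 1.16 in P_DMSO, so that the drug groups overlapped in P and were apart in R. The ratio was also apart upward in P_shLSD1, at 0.866 and 1.04, against 0.487 and 0.618 in P_shCtrl. In R_shFosL1 it was 0.740 and 0.626, against 0.420 and 0.401 in R_shCtrl, again apart. R_shLSD1, at 0.496 and 0.412, overlapped R_shCtrl. These ratios are descriptions, given with no test.

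**Figure D3:**
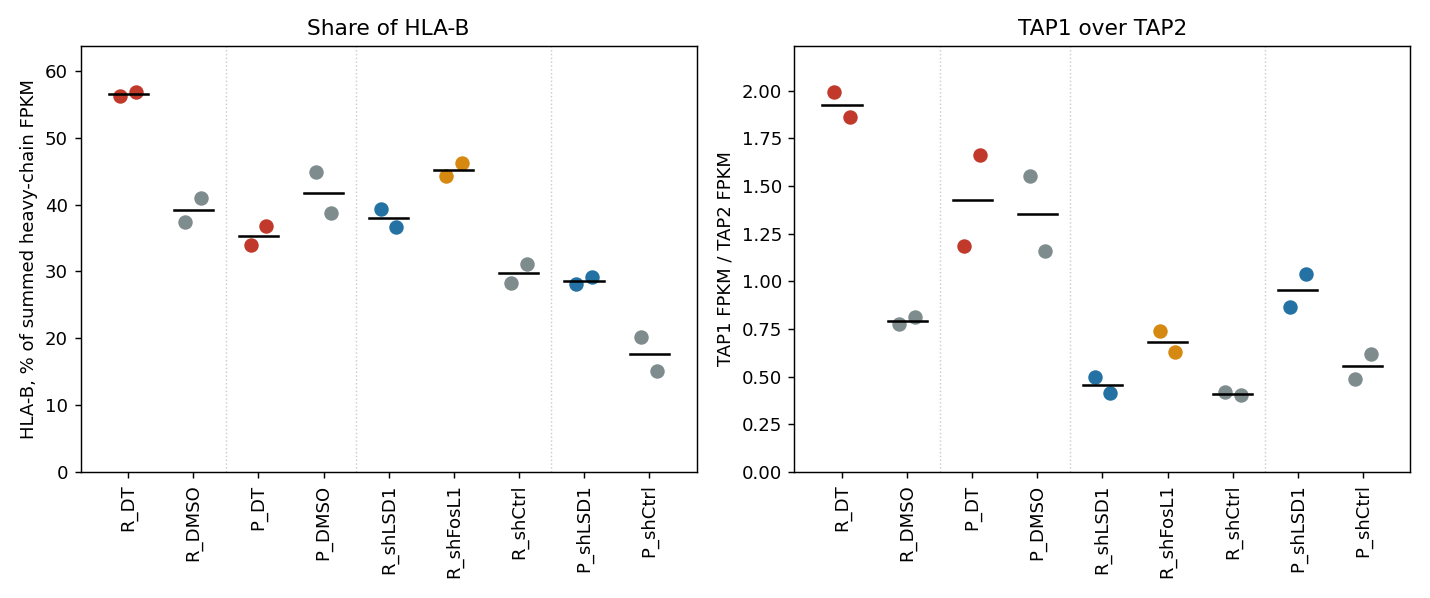
Left, FPKM of HLA-B as a percentage of the summed FPKM of HLA-B, HLA-C, HLA-E and HLA-F; right, FPKM of TAP1 divided by that of TAP2; points are libraries, lines are group means (n = 2). R_DT is highest in both, at 56.3% and 56.9% on the left and at 1.996 and 1.86 on the right.

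TAP1 and TAP2 also differ in how clearly reads can be assigned. Of 50-base stretches of the annotated transcripts, 32.7% of those of TAP2 also occur in another gene, most often AL669918.1, which overlaps it on the same strand, against 1.05% of those of TAP1. The shares were 6.17% for HLA-C, 5.13% for HLA-E and for TAPBP, 2.12% for HLA-B, 1.25% for HLA-F and 0% for B2M and NLRC5. TAP1 overlaps PSMB9 and HLA-F overlaps HLA-F-AS1 on the opposite strand. How the authors' counting treated strand is not given in the sources used here, so TAP2, HLA-B, HLA-C and these overlaps are less certain than B2M.

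The other genes of the pathway were read as fixed lists, starting with peptide loading and peptide trimming in the endoplasmic reticulum. This list held CALR, CANX, PDIA3, ERAP1, ERAP2 and TAPBPL. In R_DT against R_DMSO, 2 of 6 rose, where 3.65% of all genes did, while CALR, CANX and PDIA3 were not called. The 2 that rose were TAPBPL, a tapasin-related peptide editor (1.74 ± 0.25, adjusted p = 0.015), and ERAP1, the aminopeptidase that trims peptides in the endoplasmic reticulum (0.97 ± 0.15, adjusted p = 0.015). ERAP1 had 3.48 and 3.18 FPKM in R_DT, against 1.17 and 1.24 FPKM in R_DMSO. Neither was called when any 1 of the 4 R libraries was left out. In P_DT against P_DMSO, 4 of 6 rose, where 12.8% of all genes did, and 2 to 4 of them without each library in turn. The chaperone CALR had 502 and 540 FPKM in P_DT, compared with 153 and 207 FPKM in P_DMSO (1.54 ± 0.16, adjusted p = 0.0016), and the oxidoreductase PDIA3 had 149 and 142 FPKM, against 79.3 and 76.7 FPKM (0.89 ± 0.11, adjusted p = 0.0029). The CALR response differed between lines (-1.97 ± 0.23 for R minus P, adjusted p = 0.0043).

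Between the lines, CALR (2.12 ± 0.16, adjusted p = 0.00033) and PDIA3 (adjusted p = 0.00065) rose and ERAP1 fell in R_DMSO against P_DMSO, where 16.2% of all genes rose and 11.5% fell. In R_DT against P_DT, PDIA3 (0.66 ± 0.11, adjusted p = 0.0047) and CANX (0.37 ± 0.12, adjusted p = 0.045), a chaperone of new heavy chains, rose and ERAP1 fell, where 18.6% of all genes rose and 19.0% fell. ERAP1 had 1.17 and 1.24 FPKM in R_DMSO, against 27.9 and 27.2 FPKM in P_DMSO (-3.69 ± 0.15, adjusted p = 3.2e-05), and 3.48 and 3.18 FPKM in R_DT, against 42.2 and 41.0 FPKM in P_DT (-3.30 ± 0.15, adjusted p = 2.3e-05). With the hairpins, ERAP1 was at 0.529 and 0.471 FPKM in R_shLSD1, against 1.70 and 0.835 FPKM in R_shCtrl, and at 16.5 and 12.3 FPKM in P_shLSD1, against 12.8 and 17.1 FPKM in P_shCtrl. It was thus at most 3.48 FPKM in these R libraries and at least 12.3 FPKM in every P library. ERAP2, the related aminopeptidase, was at 1.30 to 2.14 FPKM over the 8 drug libraries.

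The immunoproteasome, which cuts many of the peptides that class I presents, was read next. Its list held the subunit genes PSMB8, PSMB9 and PSMB10 and also the proteasome activator genes PSME1, PSME2 and PSME3. In R_DT against R_DMSO, 2 of the 6 listed genes rose and 1 fell, where 3.65% and 2.83% of all genes did. PSMB8 had 64.7 and 80.8 FPKM in R_DT, against 39.5 and 34.5 FPKM in R_DMSO (0.95 ± 0.15, adjusted p = 0.018), and PSMB9 had 54.7 and 57.9 FPKM, against 31.6 and 26.4 FPKM (0.94 ± 0.19, adjusted p = 0.040). The gene that fell was PSME3, a nuclear proteasome activator (-0.59 ± 0.12, adjusted p = 0.039). No gene of the list was called without any 1 of the 4 R libraries. In P_DT against P_DMSO, PSMB10 alone of the 6 rose, where 12.8% of all genes did (2.28 ± 0.53, adjusted p = 0.026), with 66.6 and 70.3 FPKM in P_DT, compared with 6.46 and 26.5 FPKM in P_DMSO. Its control libraries were far apart, and 0 to 2 genes of the list were called when each library was left out.

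With the LSD1 hairpin in R, 3 of the 6 fell, where 12.4% of all genes did, while HLA-B and B2M rose. PSMB8 had 21.6 FPKM in both R_shLSD1 libraries, against 45.5 and 42.8 FPKM in R_shCtrl (-0.998 ± 0.09, adjusted p = 0.0036), and PSMB9 had 12.5 and 11.2 FPKM, against 28.6 and 23.6 FPKM (-1.07 ± 0.14, adjusted p = 0.0087). The third was PSME2 (-0.51 ± 0.10, adjusted p = 0.024), and 1 to 3 of the list were called lower without each library in turn. In P_shLSD1, PSMB8 had 19.7 and 29.1 FPKM, against 56.8 and 50.1 FPKM in P_shCtrl, and PSMB9 had 11.3 and 15.6 FPKM, against 26.1 and 17.8 FPKM, apart downward with none called.

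**Figure D4:**
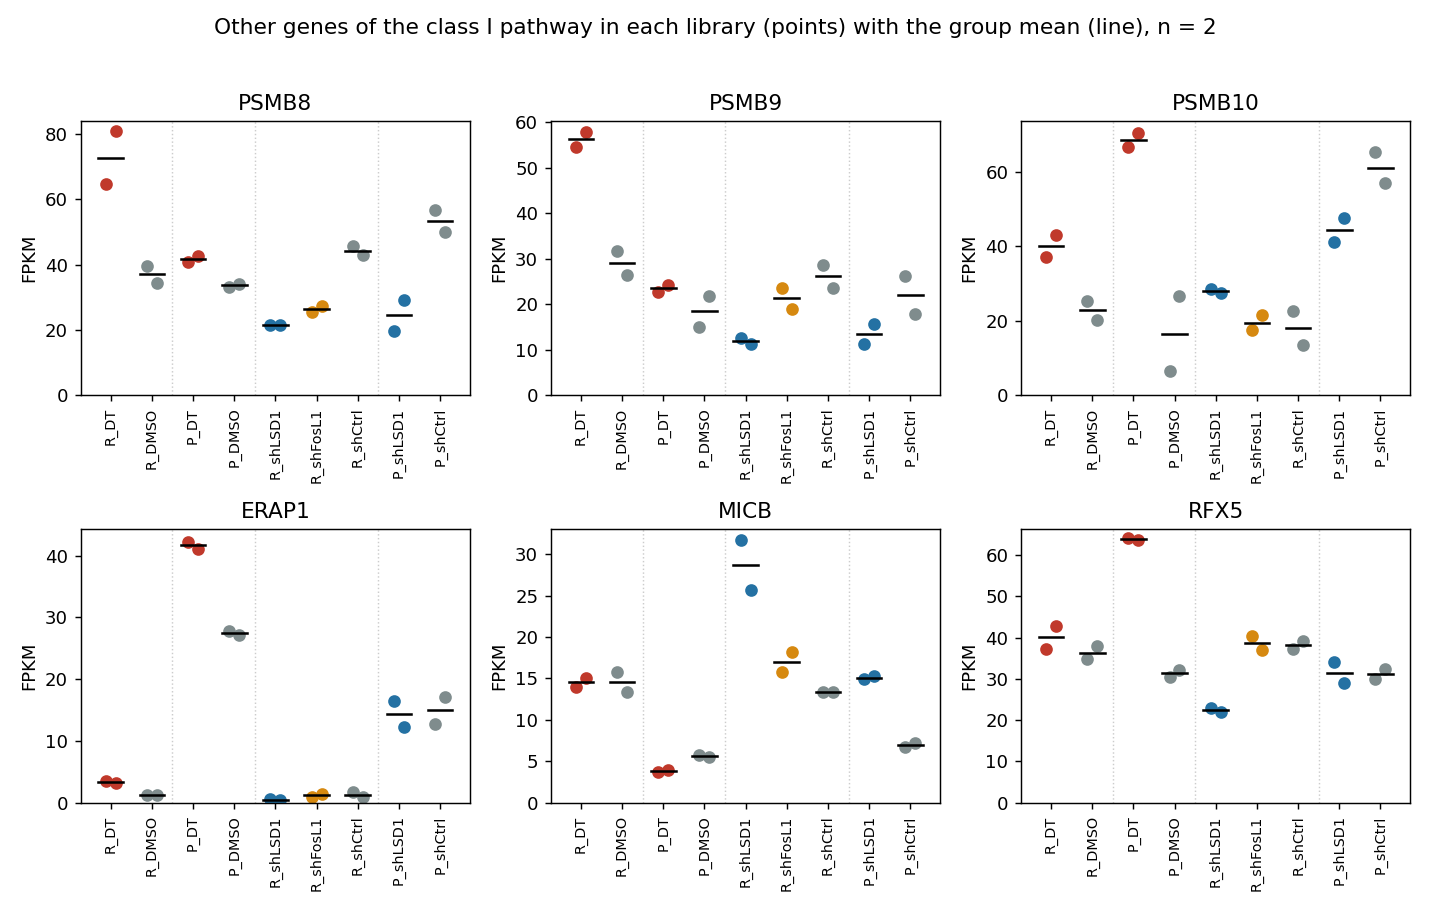
FPKM of 6 other genes of the class I pathway in every library (points) with the group mean (line, n = 2), linear axes from 0. PSMB8 and PSMB9 are highest in R_DT (64.7 and 80.8 FPKM for PSMB8) and low with the LSD1 hairpin in R (21.6 FPKM), ERAP1 is high in the P groups, and MICB is highest in R_shLSD1, at 31.6 and 25.7 FPKM.

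The constitutive subunits that the immunoproteasome replaces were read beside it. In P_DT against P_DMSO, 2 of 3 fell, where 9.67% of all genes did, PSMB6 (-0.81 ± 0.14, adjusted p = 0.0086) and PSMB7 (-0.85 ± 0.16, adjusted p = 0.011), with 0 to 2 called when each library was left out. In R_DT against R_DMSO none of the 3 was called. In R_shLSD1 against R_shCtrl, PSMB5 rose (0.90 ± 0.06, adjusted p = 0.0023), with 135 and 130 FPKM, against 69.3 and 71.8 FPKM, and PSMB7 (-0.56 ± 0.07, adjusted p = 0.0076) and PSMB6 (-0.24 ± 0.06, adjusted p = 0.037) fell.

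Of 26 genes of interferon signalling and class I transactivation, some passed under the drugs in each line. In R_DT against R_DMSO, 2 rose and none fell, where 3.65% and 2.83% of all genes did, the kinase JAK1 (0.68 ± 0.13, adjusted p = 0.030) and the repressor IRF2 (0.63 ± 0.14, adjusted p = 0.042), and neither was called without any 1 of the R libraries. In P_DT against P_DMSO, 6 rose and 2 fell, where 12.8% and 9.67% of all genes did. RFX5, a subunit of the complex through which NLRC5 reaches class I promoters, had 64.2 and 63.8 FPKM in P_DT, compared with 30.5 and 32.2 FPKM in P_DMSO (1.01 ± 0.13, adjusted p = 0.0032), and STAT2, of the type I interferon pathway, had 27.8 and 27.6 FPKM, against 12.3 and 11.6 FPKM (1.15 ± 0.18, adjusted p = 0.0071). The receptor subunit IFNGR2 (-1.14 ± 0.13, adjusted p = 0.0022) and NFKB1 (-0.58 ± 0.16, adjusted p = 0.044) fell. Without each library in turn, 1 to 10 rose and 1 fell.

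The interaction term, R minus P, was called below 0 for RFX5 (-0.88 ± 0.18, adjusted p = 0.026), STAT2 (-1.42 ± 0.26, adjusted p = 0.018) and IRF9 (-0.93 ± 0.23, adjusted p = 0.041), and above 0 for JAK1 (0.92 ± 0.18, adjusted p = 0.022), where 7.24% and 6.64% of all genes were. Without P_DMSO replicate 1 there were 3 calls below 0 and 1 above, without P_DMSO replicate 2 there were 8 and 1, and without R_DMSO replicate 2 there was 1 below 0. Without each of the other 5 drug libraries limma called 0 of the list. In R_shLSD1 against R_shCtrl, 9 of the 26 fell and none rose, where 12.4% of all genes fell, and the list's median was -0.31 against -0.05 over all genes. JAK1 had 18.3 and 18.6 FPKM in R_shLSD1, against 36.7 and 42.0 FPKM in R_shCtrl (-1.05 ± 0.11, adjusted p = 0.0047), and RFX5 had 22.9 and 21.9 FPKM, against 37.3 and 39.1 FPKM (-0.74 ± 0.09, adjusted p = 0.0074). Without each library in turn, 2 to 6 fell. In P_shLSD1 against P_shCtrl limma called 0 of the 26.

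Some of the genes that interferon induces passed under the drugs in each line. In R_DT against R_DMSO, 8 of 21 tested rose and none fell, where 3.65% and 2.83% of all genes did, with a median of 0.65 against -0.03 over all genes, and 2 to 3 rose without each library in turn. BST2, the tetherin that holds virions at the cell surface, had 10.2 and 12.5 FPKM in R_DT, against 0.590 and 0.622 FPKM in R_DMSO (2.93 ± 0.20, adjusted p = 0.0010), and the guanylate-binding protein GBP2 had 5.80 and 6.86 FPKM, against 0.443 and 0.291 FPKM (2.42 ± 0.19, adjusted p = 0.0019). In P_DT against P_DMSO, 10 of 21 rose and 2 fell, where 12.8% and 9.67% of all genes did, with a median of 0.80 against 0.11, and 3 to 11 rose without each library in turn. IFI6 (2.22 ± 0.19, adjusted p = 0.00077) and GBP2 (1.70 ± 0.19, adjusted p = 0.0019) rose, and the nuclease ISG20 (-2.31 ± 0.43, adjusted p = 0.012) and BST2 (-0.74 ± 0.20, adjusted p = 0.038) fell. BST2 had 2.54 and 2.53 FPKM in P_DT, compared with 5.42 and 4.45 FPKM in P_DMSO, and its response differed between lines (3.67 ± 0.28 for R minus P, adjusted p = 0.0012).

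Of 7 interferon genes listed, IFNE alone passed the filter in the drug table. It had 0 and 0.266 FPKM in R_DT, against 1.25 and 1.11 FPKM in R_DMSO, and 0.661 and 1.96 FPKM in P_DT, compared with 4.44 and 2.14 FPKM in P_DMSO, and was called in neither line. IFNB1 was listed at 0 in all 8 drug libraries. With the LSD1 hairpin in R, 2 of 15 interferon-induced genes tested fell and none rose, where 12.4% and 9.42% of all genes did. The falls, near the share over all genes, were OAS3 (-1.23 ± 0.22, adjusted p = 0.020) and MX2 (-0.64 ± 0.14, adjusted p = 0.030). Both calls depended on single libraries.

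Ligands of the activating receptor NKG2D, which are distant relatives of class I chains without peptide, were read next. Between the lines, 3 of 4 tested were higher in R_DT against P_DT, where 18.6% of all genes were. Among them were MICB (1.69 ± 0.16, adjusted p = 0.00044) and ULBP2 (1.05 ± 0.18, adjusted p = 0.0044). In R_DMSO against P_DMSO, MICB (1.23 ± 0.16, adjusted p = 0.0024) and MICA (1.14 ± 0.26, adjusted p = 0.019) were higher, where 16.2% of all genes were. MICB had 31.6 and 25.7 FPKM in R_shLSD1, against 13.4 and 13.3 FPKM in R_shCtrl (1.04 ± 0.14, adjusted p = 0.0085), and 14.9 and 15.3 FPKM in P_shLSD1, against 6.70 and 7.20 FPKM in P_shCtrl (1.02 ± 0.17, adjusted p = 0.045). MICA had 19.0 and 17.3 FPKM in R_shLSD1, against 9.07 and 9.14 FPKM in R_shCtrl (0.92 ± 0.13, adjusted p = 0.0093). These were 2 of 4 ligands tested in R, where 9.42% of all genes rose, and 1 of 5 in P, where 2.2% rose, and 1 to 2 and 0 to 1 stayed called without each library in turn. Under the drugs in R, ULBP2 rose (1.15 ± 0.18, adjusted p = 0.016), with 15.1 and 16.96 FPKM in R_DT, against 6.65 and 6.71 FPKM in R_DMSO, and it was not called without any 1 of the R libraries.

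Of the other partners of B2M, MR1, which presents microbial vitamin metabolites, rose in both lines under the drugs. It had 8.36 and 7.87 FPKM in R_DT, against 1.97 and 2.03 FPKM in R_DMSO (1.60 ± 0.20, adjusted p = 0.0088), and 15.4 and 14.4 FPKM in P_DT, compared with 4.65 and 6.60 FPKM in P_DMSO (1.28 ± 0.20, adjusted p = 0.0059). It was not called in R without any 1 of the R libraries, and the count for this list in P was 0 to 1. Among 9 known negative regulators of class I, 1 fell in R_DT, the Polycomb subunit EED (-0.69 ± 0.14, adjusted p = 0.040), where 2.83% of all genes did. In P_DT 1 fell and 1 rose, near the 9.67% and 12.8% of all genes that did. They were the Polycomb methyltransferase EZH2 (-0.68 ± 0.14, adjusted p = 0.016) and TMEM127 (0.61 ± 0.13, adjusted p = 0.021). None of the 9 was called in R without any 1 of the R libraries. None of the 9 regulators was called with the LSD1 hairpin in either line, by limma. Between the lines, 3 of the 9 fell and 1 rose in R_DMSO against P_DMSO, where 11.5% and 16.2% of all genes did. These falls depended on single libraries. In R_DT against P_DT, 3 fell and none rose, where 19.0% and 18.6% of all genes did. TMEM127 and MARCHF9 were among the falls in both comparisons.

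Over the 8 drug libraries the members varied together to different degrees. Pearson's r of log2(FPKM + 1) was 0.96 between HLA-C and TAPBP, 0.95 between HLA-B and HLA-F, 0.90 between HLA-B and B2M and 0.92 between HLA-B and TAP1, but 0.39 between TAP1 and TAP2 and -0.56 between HLA-E and TAP2. The libraries fall into 4 groups, so these values describe group differences and were not tested. Genes patterned like the mean of the 9 were sought among 10228 others averaging 5 FPKM or more, by the same measure over the same 8 libraries. Among the most alike were PLOD1 (r of 0.99), SLC12A4 (0.98), TMED3 (0.98), APP (0.98), NPHP4 (0.98), TRIM16L (0.98) and TRIM16 (0.98). They were picked for a high r, so these values are no test of shared regulation. PLOD1 averaged 103 FPKM in R_DT and 61.3 FPKM in R_DMSO, and 65.7 FPKM in P_DT and 49.2 FPKM in P_DMSO. APP averaged 277 FPKM in R_DT and 158 FPKM in R_DMSO, and 211 FPKM in P_DT and 134 FPKM in P_DMSO.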

How the data were processed

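RNA-seq libraries of 9 groups (2 each) were given as FPKM per gene in 4 tables that the authors deposited, 1 for the drug groups and 3 for the hairpin groups. The submitters' processing notes name CASAVA 1.4, HISAT2 2.1.0, Cufflinks 2.2.1 and hg38, with no order. Depth per library is not given in the tables, so no counting interval can be given; 18 FPKM columns were used and 0 were left over.

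Genes that reached 1 FPKM in 2 or more libraries of a fit were tested with limma 3.58.1 (R 4.3.3) on log2(FPKM + 1), a scale that understates changes of low genes, with trend and robust settings. P-values were adjusted by Benjamini-Hochberg over all genes tested, with a threshold of 0.05, and the script was tested on simulated data. The drug groups shared a fit (4 residual and 2.79 prior degrees of freedom), the R hairpin groups another (2 and 3.38), the P hairpin groups another (2 and 3.57), and both hairpin tables a joint one for the interaction (4 and 3.41). R_shFosL1 and R_shCtrl lie in different tables and were compared with no test. Python 3.11.15, pandas 2.3.3, numpy 2.4.6 and matplotlib 3.10.9 did the rest.

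Alternatives were another pseudocount (0.1), no filter, quantile normalization, rescaling to the protein-coding total, each comparison's groups alone, a replicate block and each library left out. The members and lists were chosen with earlier results of these data known. From each list the text names the 2 rises and 2 falls with the smallest adjusted p; PSME2, ERAP2, IFNE, IFNB1 and the genes of the interaction terms were named after their values were seen. Results of 1 gene that the rule for alike patterns picked are not reported here.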

Additional observations from a re-analysis of the deposited data

Results flagged for a closer look

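The drug response of HLA-B differed between the lines, by 1.77 ± 0.26 on the log2 scale (R minus P, interaction term in limma, adjusted p = 0.0090). The change was 2.50 in R_DT against R_DMSO and 0.74 in P_DT against P_DMSO. The response of TAP1 also differed, by 1.16 ± 0.20 (adjusted p = 0.015), with a change of 1.02 in R and of -0.13 in P. Without each drug library in turn the HLA-B term ran from 1.59 to 1.94 and stayed past the threshold, while TAP1 stayed past it in 3 of 8 such fits.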

How the results depend on the processing

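With FPKM and 2 libraries per group, small changes and low genes such as HLA-F and NLRC5 are poorly resolved. Of the changes of single genes under the planned settings other than left-out libraries, 17 passed the threshold newly, 25 no longer passed and 10 turned sign. The other 380 kept their direction and side of the threshold or, for R_shFosL1, which has no test, had a difference that moved little. The replicate block ended the calls of HLA-C in R_DT (adjusted p = 0.073), HLA-E (0.059) and TAP2 (0.063) in R_DMSO against P_DMSO, TAP2 in R_DT against P_DT (0.054) and TAPBP in P_shLSD1 (0.055). Testing every gene above 0 ended, beside HLA-C and HLA-F in R_DT, those of HLA-B (0.056) and HLA-C (0.052) in P_DT, HLA-E (0.058) and TAP2 (0.070) in R_DMSO against P_DMSO, TAP2 in R_DT against P_DT (0.058), TAPBP in P_shLSD1 (0.12) and HLA-B in R_shLSD1 (0.054).

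Under quantile normalization the turned values were -0.12 for HLA-B and -0.43 for B2M in R_DMSO against P_DMSO, -0.31 for B2M in R_DT against P_DT and 0.17 for TAP2 in the drug interaction. With rescaling to the protein-coding total they were 0.013 for TAP1 in P_DT, -0.0082 for HLA-B and -0.062 for B2M in R_DMSO against P_DMSO, -0.24 for TAPBP in R_DT against P_DT, -0.21 for HLA-C in the drug interaction and 0.021 for NLRC5 in P_shLSD1. None of these was called in either fit, and the cause was not tested.

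Counts of the 9 genes and of all genes moved as follows. The replicate block gave 0 members in R_DMSO against P_DMSO (3 at an unadjusted p below 0.05, by limma) and 2 in P_shLSD1, and 626 genes in R_DT, 945 in P_shLSD1 and 78 in the hairpin interaction. Whether equal replicate numbers mark paired samples is not known from the labels. Replicate differences of 2 groups correlated at -0.16 to 0.07 in the drug table, -0.28 in the P and 0.02 in the R hairpin table. These values cannot settle the pairing. A crossed pairing of the P hairpin libraries, chosen after seeing the data, gave 4 members and 3446 genes. Testing every gene above 0 gave 3 members in P_DT, 0 in R_DMSO against P_DMSO (3 unadjusted), 0 in P_shLSD1 (5 unadjusted) and 1 in R_shLSD1, and 0 genes in P_shLSD1, 1609 in R_shLSD1 and 84 in the hairpin interaction. Quantile normalization gave 1 member in R_DMSO against P_DMSO, 4 in P_shLSD1 and 1 in the hairpin interaction, and 879 genes in P_shLSD1. Rescaling to the protein-coding total gave 3 members in P_shLSD1 and 1 in the hairpin interaction, with 187 genes there. A pseudocount of 0.1 gave 1368 genes past 2-fold in R_shFosL1. Fitting each pair of groups alone gave 0 members in P_DT (6 unadjusted), 0 in R_DMSO against P_DMSO (2 unadjusted) and 7 in R_DT against P_DT, and 1451 genes in P_DT, 2507 in R_DT and 2530 in R_DMSO against P_DMSO.

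As reported, the counts over all genes were 3861 in P_DT, 1115 in R_DT, 4753 in R_DMSO against P_DMSO, 6464 in R_DT against P_DT, 2386 in the drug interaction, 504 in P_shLSD1, 3118 in R_shLSD1, 303 in the hairpin interaction and 834 in R_shFosL1. Without each library in turn they ran from 1179 to 6055, 54 to 101, 2267 to 5755, 3552 to 3669, 647 to 4522, 271 to 950, 966 to 1439 and 31 to 135 in the first 8 of these. Members called ran from 0 to 7 in P_DT, 1 in R_DT, 0 to 5 in R_DMSO against P_DMSO, 2 to 3 in R_DT against P_DT, 1 to 3 in the drug interaction, 0 to 2 in P_shLSD1, 1 in R_shLSD1 and 0 in the hairpin interaction.

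Values that changed sign without single libraries ran from -0.28 to 0.0061 for TAP1 and -0.45 to 0.052 for TAP2 in P_DT; from -0.10 to 0.24 for HLA-B, -0.12 to 0.15 for B2M and -0.083 to 0.017 for TAP1 in R_DMSO against P_DMSO; from -0.45 to 0.62 for HLA-C, -0.27 to 0.23 for TAP2, -0.68 to 0.10 for TAPBP and -0.87 to 0.28 for NLRC5 in the drug interaction. In P_shLSD1 they ran from -0.14 to 0.14 for HLA-E, -0.53 to 0.46 for HLA-F and -0.41 to 0.37 for NLRC5, in R_shLSD1 from -0.11 to 0.13 for HLA-E and -0.077 to 0.17 for TAP1, and in the hairpin interaction from -0.13 to 0.15 for HLA-E, -0.35 to 0.066 for B2M, -0.0078 to 0.40 for TAP2 and -0.0032 to 0.78 for NLRC5.

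Rescaling to the protein-coding total moved the median of all genes to 0.26 in P_DT (0.11 as reported), -0.14 in R_DT (-0.03), -0.39 in R_DT against P_DT (-0.05) and -0.42 in the drug interaction (-0.16), and quantile normalization moved it to -0.00 in P_DT and -0.02 in the drug interaction. With that rescaling the higher share of calls was 72.9% in P_DT (57.0% as reported), 44.2% in R_DT (56.3%), 28.2% in R_DT against P_DT (49.5%), 26.4% in the drug interaction (47.9%) and 53.5% in R_shLSD1 (43.2%).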
